A study of Homo sapiens with 6 samples.

Results

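Expression of 10 genes of neutrophil granules and their protease inhibitors was examined in NB4, a long-cultured line from acute promyelocytic leukemia (APL), after guide-directed cutting of ARID1A. The genes were the antiproteases SLPI, SERPINB1 and SERPINA1, the specific granule genes LTF, CAMP, LCN2, MMP8, CRISP3 and OLFM4, and the gelatinase gene MMP9. They are 10 of the 52992 genes to which the transcripts of the tables could be summed. SLPI was chosen by its higher level in ARID1A-deficient cells in these same libraries, and the other 9 genes were named by function with those results known. All comparisons of the 10 genes with control cells are therefore given as description. Calls among them are counted beside the share of all genes called, no p-value is given for them, and nothing is read from the calls. The gene lists set beside them were also chosen with earlier results of these data known. Adjusted p-values of listed genes against control cells are therefore description too. The question addressed was whether the higher SLPI level accompanied other genes of later granule maturation or not.

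The 6 samples fell into 3 groups with 2 replicates each. All cells expressed Cas9 together with a lentiviral sgRNA (the small guide RNA that directs Cas9) under doxycycline control, had been sorted as mCherry+GFP+ populations, and received 1 µg/ml doxycycline for 7 days, after which the methods of the study describe further culture without the drug. LacZ cells (genotype WT) expressed a guide against the bacterial lacZ gene, whereas sg1 and sg5 cells expressed guides against ARID1A, a DNA-binding part of the SWI/SNF complex that moves nucleosomes. sg1 and sg5 are called ARID1A-deficient as in the study. Each is a sorted population in which edits can differ from cell to cell, and no source used here says whether the replicates were separate cultures, so p-values measure only the spread between these samples. The labels name no differentiating agent.

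Neutrophil granules are filled in order as the cell matures. Promyelocytes make the primary granules with myeloperoxidase and the neutral serine proteases, myelocytes make the specific (secondary) granules with lactoferrin, cathelicidin and lipocalin, and later stages make the gelatinase granules. The factor C/EBPε is required for the specific granule genes. SLPI, a small secreted inhibitor of neutrophil elastase and cathepsin G, is itself made by maturing neutrophils, so its level can be set beside that of the granule genes.

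Promoter windows of RefSeq (GRCh38.p14), running from 250 bases before to 50 bases after a gene start, were given for 8 of the 10 genes in 11 windows. A C/EBP-type motif, TTNNGCAA on either strand, was found upstream of the start in 4 of these genes, all of them specific granule genes, with 1 window each. The same letters occurred in 10.5% of the 35116 windows of all genes. A match describes the letters only. The matching stretches of 60 bases are shown because these 4 genes had few or no counts here (below). They are written 5′ to 3′ on the strand of the gene, with the motif in capitals.
LTF (chr3:46464931-46464990, minus strand): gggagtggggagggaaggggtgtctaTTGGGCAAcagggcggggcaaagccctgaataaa
LCN2 (chr9:128149284-128149343, plus strand): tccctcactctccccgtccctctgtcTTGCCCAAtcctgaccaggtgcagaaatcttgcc
MMP8 (chr11:102725024-102725083, minus strand): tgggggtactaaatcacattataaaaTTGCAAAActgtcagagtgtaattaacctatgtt
CRISP3 (chr6:49744424-49744483, minus strand): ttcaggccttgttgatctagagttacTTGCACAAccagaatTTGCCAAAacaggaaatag
The CRISP3 stretch holds 2 matches. The windows of CAMP, OLFM4, SERPINB1 and SERPINA1 held none, and of the 3 LTF windows the one shown held a match.

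Each library held between 46131178 and 54843745 estimated counts. ARID1A transcript level was 29.6 and 35.1 TPM in LacZ, 38.0 and 36.4 TPM in sg1, and 24.3 and 26.9 TPM in sg5. The edgeR quasi-likelihood test did not call ARID1A in sg1 (adjusted p = 0.993) or sg5 (adjusted p = 0.661), so the transcript level gave no check of the labels. Small insertions or deletions need not change it. The study itself reports loss of ARID1A protein by immunoblot in NB4 cells with ARID1A guides after 7 days of doxycycline. In a principal component analysis, replicate 1 of sg1 and replicate 2 of sg5 stood apart from the other samples on the first component, with scores of 34.3 and 46.8 against -30.3 to -11.3. Results below that rest on these 2 libraries are also given without them. In that reduced fit, sg1 and sg5 keep 1 sample each and are assumed to vary like the LacZ pair, from which alone the spread is then estimated. Of 6 markers of the promyelocyte line listed, 4 were tested. MPO, the peroxidase of primary granules, lay between 5991 and 7769 TPM and CD33 between 59.9 and 74.7 TPM. The neutrophil elastase gene ELANE, also a promyelocyte marker, had only 1 to 9 counts in a sample. All ARID1A-deficient samples lay below both LacZ samples for 2 of the 4 and above for 0. With sg1 and sg5 joined, edgeR called 0, and KIT differed most (log2 fold change -1.91). KIT, noticed after its values were seen, had 16 and 10 counts in LacZ and 0 to 10 in the ARID1A-deficient samples. The list summed to 7473 to 8361 TPM in LacZ, 7275 to 7341 TPM in sg1 and 6537 to 6879 TPM in sg5.

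SLPI was expressed at 53.8 and 50.3 TPM in LacZ, 171 and 110 TPM in sg1, and 130 and 143 TPM in sg5. All 4 ARID1A-deficient samples lay above both LacZ samples, and the lowest of them was replicate 2 of sg1. Group means were 52.1 ± 2.48 TPM in LacZ, 141 ± 43.1 TPM in sg1 and 136 ± 9.18 TPM in sg5 (SD, n = 2 each). The fitted level was 2.81 times that of LacZ in sg1 (log2 fold change 1.49, SE 0.20) and 2.73 times in sg5 (1.45, SE 0.20). With sg1 and sg5 joined, it was 2.77 times that of LacZ (1.47, SE 0.19). In RNA from a whole population, more cells that express SLPI and more SLPI RNA per cell cannot be told apart. SLPI is a single-transcript gene in the tables (SLPI-201, 4 exons), so no part of its count was divided among isoforms.

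The fit across all genes used the same samples that chose SLPI, so its calls at a false discovery rate (FDR) of 0.1 describe these values and are no support for them. SLPI fell under the threshold in sg5 and in the joined comparison but not in sg1, where edgeR called 0 of the 5 genes that passed the filter on low counts. There 2 of the 5 had an unadjusted p under 0.05, and DESeq2 called 2, SLPI higher and MMP9 lower. Over all 18514 genes tested, edgeR called 0.0378% in sg1, 0.0972% in sg5 and 0.167% in the joined comparison. By edgeR, 769, 1383 and 1334 of the 18514 had an unadjusted p under 0.05 in the same order, to be set beside such counts here and below. DESeq2 called 0.742%, 1.35% and 1.81% in the same order, and it called SLPI and MMP9 in each. Which comparisons held that call varied with single libraries. Leaving out replicate 1 or 2 of LacZ ended the call in sg5 (log2 fold change 1.50 and 1.41) and in the joined comparison (1.52 and 1.43). Leaving out replicate 2 of sg5 ended it in sg5 (1.35), while leaving out replicate 2 of sg1, replicate 1 of sg5 or replicate 2 of sg5 gave a call in sg1 (1.79, 1.49 and 1.49). Without the 2 libraries that stood apart, the log2 fold change of SLPI was 1.12 in sg1, 1.35 in sg5 and 1.24 joined.

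Between the 2 ARID1A guides, which the choice of genes did not use, SLPI did not differ detectably. The log2 difference of sg1 from sg5 was 0.04 (95% interval -0.41 to 0.49, edgeR adjusted p = 1.00). For SERPINB1 it was -0.01 (-0.55 to 0.53), for SERPINA1 0.14 (-0.29 to 0.56), for MMP9 0.42 (-0.08 to 0.92) and for MMP8 0.61 (-1.23 to 2.45), each with an adjusted p of 1.00. None of the 5 genes was called, none had an unadjusted p under 0.05, and DESeq2 called 0. Of all genes, edgeR called 0.00540% and DESeq2 0.0270% in this comparison, and 256 of 18514 had an unadjusted p under 0.05 by edgeR. The intervals leave room for a difference in MMP9 between the guides of close to the size it showed against LacZ.

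**Figure D1:**
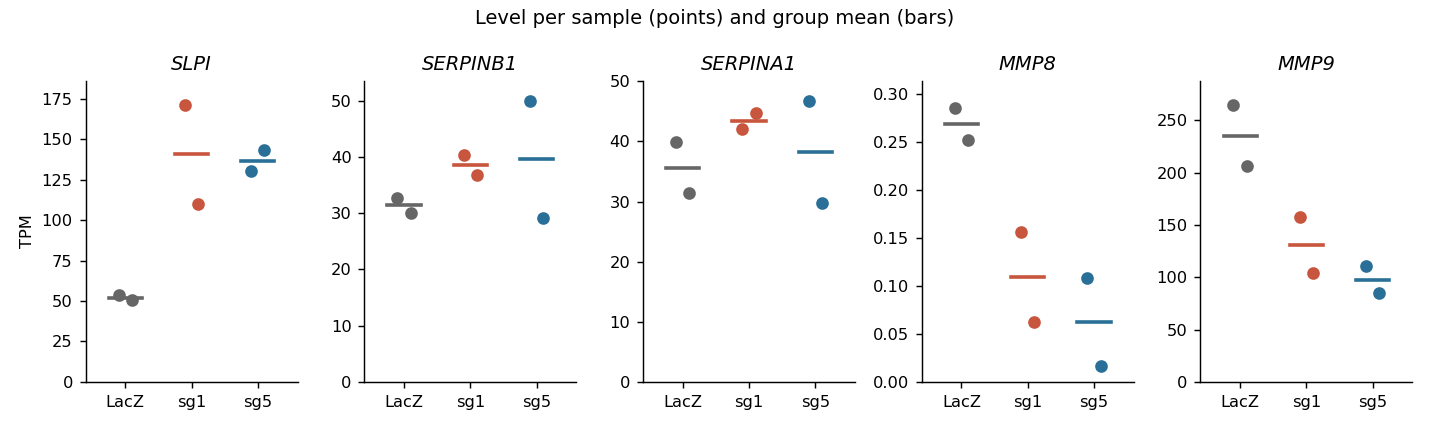
TPM of the 5 genes that passed the filter on low counts, with 1 point for each sample and a bar at the mean of the 2 replicates in LacZ, sg1 and sg5; each axis starts at 0. SLPI lies between 110 and 171 TPM in the 4 ARID1A-deficient samples and between 50.3 and 53.8 TPM in LacZ, MMP9 and MMP8 lie lower in all 4, and SERPINB1 and SERPINA1 overlap with LacZ.

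The other antiproteases of the neutrophil differed less from LacZ than SLPI did. SERPINB1, a cytosolic inhibitor of elastase, cathepsin G and proteinase 3, was expressed at 32.7 and 30.1 TPM in LacZ, 40.3 and 36.7 TPM in sg1, and 49.9 and 29.2 TPM in sg5. The 2 replicates of sg5 were the highest and the lowest of all 6 samples. The log2 fold change was 0.32 (SE 0.23) in sg1 and 0.33 (SE 0.23) in sg5, and neither was called. SERPINA1, which encodes alpha-1-antitrypsin, was expressed at 39.9 and 31.4 TPM in LacZ, 42.1 and 44.8 TPM in sg1, and 46.8 and 29.7 TPM in sg5. Here too replicate 2 of sg5 was the lowest sample. The log2 fold change was 0.31 (SE 0.19) in sg1 and 0.18 (SE 0.19) in sg5, without a call. In sg5 both values turned negative without replicate 1 of sg5, at -0.13 for SERPINB1 and -0.10 for SERPINA1. Without the 2 libraries that stood apart, they were 0.68 and 0.42 in sg5 and 0.33 and 0.31 in sg1, and edgeR then called both genes in sg5 and in the joined comparison (0.51 and 0.37). That fit called 2.20% of all genes in sg1, 4.09% in sg5, 4.20% joined and 1.12% between the guides.

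SERPINA1 transcripts begin at 2 main regions in GENCODE 29 (GRCh38), and the tables held 19 of its transcripts. Those that begin upstream (14 transcripts, first bases between chr14:94390614 and chr14:94390693) took 74.5% and 77.6% of the gene's counts in LacZ. They took 86.1% and 73.9% in sg1 and 81.1% and 76.3% in sg5. Those that begin downstream (4 transcripts, first bases between 94388589 and 94388820) took 25.5% and 21.9% in LacZ and 13.2% to 25.3% in the ARID1A-deficient samples. The groups overlapped in both, and Kallisto divides reads between these transcripts by a model, so the shares are estimates.

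Relative to the other inhibitors, SLPI took a larger part in the ARID1A-deficient samples. Of the summed TPM of SLPI, SERPINB1 and SERPINA1, SLPI made up 42.6% and 45.0% for the LacZ samples, 67.5% and 57.5% for those of sg1, and 57.3% and 70.8% for those of sg5. The summed level of the 3 inhibitors was 126 and 112 TPM in LacZ, 253 and 192 TPM in sg1, and 226 and 201 TPM in sg5. The genes of elastase, proteinase 3 and cathepsin G (ELANE, PRTN3 and CTSG) had a summed level of 849 and 889 TPM in LacZ. It was 952 and 585 TPM in sg1, and 548 and 730 TPM in sg5, which overlapped with LacZ. The overlap rested on replicate 1 of sg1, a library that stood apart, and the other ARID1A-deficient samples lay below both LacZ samples. Without the 2 libraries that stood apart, PRTN3 had a joined log2 fold change of -0.64. Most of the sum was PRTN3, whose product is not among the targets named above for SLPI. CTSG, the gene of cathepsin G, was at 164 and 158 TPM in LacZ and between 94.6 and 122 TPM in the ARID1A-deficient samples. The TPM ratio of SLPI to CTSG was 0.328 and 0.318 for the LacZ samples, 1.71 and 0.905 for those of sg1, and 1.09 and 1.51 for those of sg5. CTSG itself was not called by edgeR in the joined comparison (log2 fold change -0.52, adjusted p = 0.265).

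The specific granule genes were near or at 0 in LacZ and in ARID1A-deficient cells alike. CRISP3, a cysteine-rich secretory protein of specific granules, and OLFM4, a marker of a subset of neutrophils, had 0 counts in all 6 samples. A count of 0 allows up to 3 counts of a library, or 0.0573 to 0.0681 CPM (counts scaled to library size) here, counting error only. LTF, the lactoferrin gene, had 4 and 1 counts in LacZ and 0 or 1 in each ARID1A-deficient sample. LCN2, which encodes lipocalin 2, had 1 count in replicate 2 of sg5 and 0 in every other sample. CAMP, the cathelicidin gene, had 19 counts in replicate 2 of sg1 and 0 in the other 5 samples, including the other sg1 replicate. These 5 genes (LTF, CAMP, LCN2, CRISP3 and OLFM4) were removed by the low-count filter and have no fold change. All GENCODE 29 transcripts of these genes were in the tables, and none was left out of the sums.

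MMP8, the collagenase of specific granules, was the one specific granule gene of the set with counts enough to test. Its counts were 21 and 14 for the LacZ samples, 14 and 6 for those of sg1, and 11 and 2 for those of sg5, or 0.285 and 0.252 TPM in LacZ against 0.0164 to 0.156 TPM in the ARID1A-deficient samples. The 4 ARID1A-deficient samples lay below LacZ in CPM, but only by 0.277 against 0.278 CPM at the closest. With RLE size factors in place of TMM, the groups overlapped. The log2 fold change was -0.70 (SE 0.73) in sg1 and -1.31 (SE 0.77) in sg5, and neither was called. In sg5 it was -3.00 without replicate 1 of sg5 and -0.53 without replicate 2 of sg5, and in sg1 it was -1.32 without replicate 1 of sg1, -0.28 without replicate 2 of sg1 and -0.41 without replicate 1 of LacZ.

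MMP9, the gelatinase stored in gelatinase granules, was the most abundant of the 10 genes in LacZ and was lower in the ARID1A-deficient cells. It was expressed at 265 and 206 TPM in LacZ, 158 and 104 TPM in sg1, and 111 and 84.8 TPM in sg5. The groups did not overlap, and replicate 1 of sg1 was the highest of the ARID1A-deficient samples. The fitted level was 0.572 times that of LacZ in sg1 (log2 fold change -0.80, SE 0.22) and 0.427 times in sg5 (-1.23, SE 0.22). Joined, the log2 fold change was -1.02 (SE 0.18). edgeR did not call MMP9 in any of these, whereas DESeq2 called it lower in each. Leaving out replicate 1 of sg1, replicate 2 of sg1 or replicate 1 of sg5 brought an edgeR call in the joined comparison (-1.19, -0.86 and -1.10), and leaving out either sg1 replicate brought one in sg5 (-1.22 both times). Without the 2 libraries that stood apart it was -1.16 in sg1 and -1.07 in sg5, with a call in each. In TPM, SLPI thus stood below MMP9 in both LacZ samples and above it in each of the 4 ARID1A-deficient samples.

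TIMP1, the inhibitor of MMP9, was at 142 and 135 TPM in LacZ and between 137 and 167 TPM in the ARID1A-deficient samples, which overlapped. The TPM ratio of MMP9 to TIMP1 was 1.87 and 1.53 for the LacZ samples, 0.944 and 0.710 for those of sg1, and 0.811 and 0.559 for those of sg5. MMP9 overlaps an antisense gene on the opposite strand, SLC12A5-AS1, which had 194 to 334 counts in a sample against 7756 to 23896 for MMP9. The sources used here do not say whether the libraries kept the strand, and reads from the shared bases could then not be told apart.

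Among the 10 genes, all ARID1A-deficient samples lay above both LacZ samples for 1 (SLPI) and below both for 2 (MMP8 and MMP9). Over all genes tested, 9.72% lay above and 10.4% lay below. Without replicate 2 of sg5, SERPINB1 and SERPINA1 also lay above, and without replicate 1 of LacZ, SERPINA1 did. The median log2 fold change of the 5 tested genes was 0.24 joined, against -0.01 over all genes tested.

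Other genes of the specific and gelatinase granules showed no common direction. Of 22 genes listed, 17 were tested, and edgeR called 0 in sg1, in sg5 and in the joined comparison. At an unadjusted p under 0.05 there were 5, 4 and 5, and DESeq2 called 3, 4 and 4. The median log2 fold change of the list was -0.18 joined, with a range of -1.56 to 1.06. The summed level of the list was higher in the ARID1A-deficient samples without overlap. It was 891 to 896 TPM in LacZ, 991 to 1241 TPM in sg1 and 988 to 1044 TPM in sg5. A sum follows the most abundant genes of a list. Of the 17, 4 genes lay above LacZ in all ARID1A-deficient samples while 3 lay below, against 9.72% and 10.4% of all genes tested. LYZ, the lysozyme gene, was at 126 and 120 TPM in LacZ, 339 and 175 TPM in sg1, and 243 and 257 TPM in sg5, with a joined log2 fold change of 1.06 (adjusted p = 0.356). TCN1, which encodes the cobalamin-binding protein of specific granules, lay between 0.138 and 0.849 TPM, with overlap (0.19, adjusted p = 0.948). CHI3L1, ABCA13 and MMP25 were noticed after their values were seen. CHI3L1, a chitinase-like protein of specific granules, lay between 128 and 158 TPM in ARID1A-deficient cells against 103 and 87.5 TPM in LacZ (0.62, adjusted p = 0.166). ABCA13 (-1.56, adjusted p = 0.132) and MMP25, a membrane-bound metalloproteinase (-0.80, adjusted p = 0.363), lay below LacZ in all 4 samples. DESeq2 called LYZ and CHI3L1 higher and ABCA13 lower in sg1, in sg5 and joined, and MMP25 lower in sg5 and joined. Without the 2 libraries that stood apart, edgeR called all 4 in each comparison.

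Late neutrophil genes were mixed. Their summed level was 240 to 264 TPM in LacZ, 278 to 394 TPM in sg1 and 312 to 315 TPM in sg5. Of 18 listed, 14 were tested, and edgeR called 0 in each of the 3 comparisons, with 3 at an unadjusted p under 0.05 each time and 2 called by DESeq2 each time. Those 2 were S100A8 and S100A9, the calprotectin genes. S100A9 was at 26.9 and 26.2 TPM in LacZ, 121 and 57.1 TPM in sg1, and 63.7 and 65.6 TPM in sg5, with a joined log2 fold change of 1.57 by edgeR (adjusted p = 0.170). S100A8 was at 7.44 and 3.44 TPM in LacZ and between 10.9 and 23.7 TPM in the ARID1A-deficient samples (1.59, adjusted p = 0.349). Both lay above LacZ in all 4 samples, and the sample with the highest value of each was replicate 1 of sg1, as for SLPI. Without the 2 libraries that stood apart, the joined log2 fold change was 1.21 for S100A8 and 1.22 for S100A9, and edgeR called both. FCGR3B and ALPL, markers of mature neutrophils, had 0 counts throughout, and MME had at most 3. ITGAM, which encodes CD11b, lay between 21.8 and 28.4 TPM in all samples with overlap (0.10, adjusted p = 0.904). CSF3R, the receptor for G-CSF, was lower in all 4 samples, at 22.6 to 35.7 TPM against a LacZ mean of 47.6 TPM (-0.57, adjusted p = 0.417). The fit that called S100A8 and S100A9 also called CSF3R lower in sg1 (-0.48) and joined (-0.41).

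Of 14 primary granule genes listed, 13 were tested. edgeR called 0 joined, with 3 at an unadjusted p under 0.05, whereas DESeq2 called AZU1 and CTSG lower and RNASE2 higher. MPO had a joined log2 fold change of -0.13 (adjusted p = 0.802), PRTN3, the proteinase 3 gene, -0.21 (adjusted p = 0.859) and AZU1, the azurocidin gene, -0.35 (adjusted p = 0.349). The median of the list was -0.05. With the 2 libraries that stood apart left out, edgeR called 4 of the 13 joined, with PRTN3 (-0.64), CTSG (-0.40) and AZU1 (-0.35) lower and RNASE2 (0.40) higher. Of 25 other protease inhibitors listed, 19 were tested, edgeR and DESeq2 called 0 joined, 2 had an unadjusted p under 0.05, and the median was -0.05. In the same fit without those libraries, edgeR called 1 of them (CST7, lower). PI3, the elafin gene and a relative of SLPI in the same cluster, had at most 3 counts in a sample. TIMP1 had a joined log2 fold change of 0.17 (adjusted p = 0.752).

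Of 12 regulators of granule genes listed, 11 were tested and the other, LEF1, had 0 counts in all 6 samples. edgeR called 0 joined, with 2 at an unadjusted p under 0.05 and 1 (GFI1, lower) called by DESeq2. CEBPE, which encodes C/EBPε, was at 67.1 and 64.1 TPM in LacZ, 65.6 and 52.5 TPM in sg1, and 48.5 and 59.5 TPM in sg5 (-0.17, adjusted p = 0.783). CEBPA lay between 63.6 and 114 TPM (-0.30, adjusted p = 0.742). SPI1, which encodes PU.1, lay between 205 and 255 TPM (-0.03, adjusted p = 0.965). GFI1, a repressor needed for neutrophil formation, was lower in all 4 samples, at 64.8 to 87.4 TPM against 99.2 and 116 TPM (-0.43, adjusted p = 0.363). CEBPB, which encodes C/EBPβ and was noticed after its values were seen, was at 54.8 and 66.9 TPM in LacZ, 34.7 and 45.5 TPM in sg1, and 41.3 and 16.8 TPM in sg5. It too lay below LacZ in all 4 samples (-0.80, adjusted p = 0.708). In the fit without the 2 libraries that stood apart, edgeR called 4 regulators lower joined, which were CEBPB (-0.47), CEBPE (-0.36), GFI1 (-0.34) and CEBPA (-0.28).

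**Figure D2:**
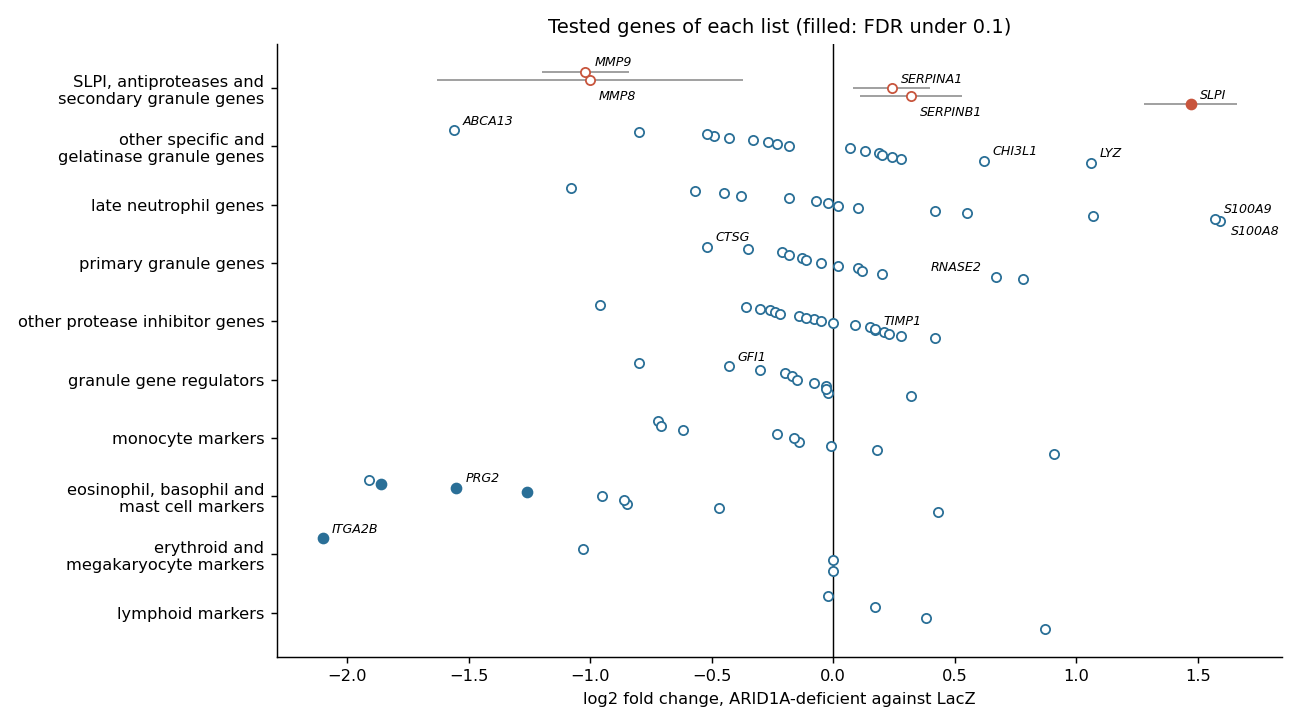
Log2 fold change of ARID1A-deficient against LacZ cells for each tested gene of the lists, with 1 row of points for each list; filled points passed an FDR of 0.1 in edgeR, and bars in the first row are standard errors. SLPI is the one filled point to the right of 0 at 1.47, with S100A8, S100A9 and LYZ unfilled at 1.06 to 1.59, and the filled points to the left are PRG2, HDC, EPX and ITGA2B.

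Markers of other cell types were examined because the sorted populations could hold cells of other character. These lists were chosen with earlier results of the same samples known, so their adjusted p-values are description and no independent support. Of 14 markers of eosinophils, basophils and mast cells listed, 9 were tested, and edgeR called 3 lower joined (EPX, PRG2 and HDC), 2 in sg1 and 3 in sg5. All 4 ARID1A-deficient samples lay below both LacZ samples for 8 of the 9, against 10.4% of all genes tested. CCR3, an eosinophil chemokine receptor, overlapped (0.43, adjusted p = 0.830). When the 2 libraries that stood apart were left out, edgeR called 6 lower joined. PRG2, the major basic protein gene, was at 65.3 and 73.5 TPM in LacZ and between 21.3 and 25.9 TPM in the ARID1A-deficient samples (-1.55, adjusted p = 0.00634). HDC, the histidine decarboxylase gene, was at 17.7 TPM in both LacZ samples and between 6.17 and 7.87 TPM (-1.26, adjusted p = 0.0182), and EPX, the eosinophil peroxidase gene, had a value of -1.86 (adjusted p = 0.0182). The summed level of the list was 116 to 120 TPM in LacZ, 47.3 to 51.7 TPM in sg1 and 46.6 to 47.2 TPM in sg5. Of 12 erythroid and megakaryocyte markers, 4 were tested and ITGA2B, an integrin of platelets, was called lower in sg1, in sg5 and joined (-2.10, adjusted p = 0.00717). That list summed to 16.1 to 17.3 TPM in LacZ, 9.09 to 10.2 TPM in sg1 and 7.69 to 8.80 TPM in sg5, with GP9, PF4, HBG1 and HBG2 at 3 counts or fewer.

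Monocyte markers summed to 79.7 to 101 TPM in LacZ, 87.9 to 95.1 TPM in sg1 and 80.4 to 111 TPM in sg5. edgeR called 0 of the 9 tested of 10 listed joined (1 at an unadjusted p under 0.05, 1 by DESeq2), and CD14 lay between 0.138 and 0.891 TPM (-0.72, adjusted p = 0.750). Lymphoid markers summed to 168 to 184 TPM in LacZ, 192 to 236 TPM in sg1 and 187 to 196 TPM in sg5, with CD3E, MS4A1 and CD7 at 3 counts or fewer. edgeR called 0 of the 4 tested of 8 listed joined, with 1 at an unadjusted p under 0.05. DESeq2 called 1, CD79A, which was higher joined (log2 fold change 0.87). All ARID1A-deficient samples lay above both LacZ samples for 3 of the 4 and below for 0, against 9.72% and 10.4% of all genes tested. The part of the eosinophil, basophil, mast cell, megakaryocyte and lymphoid values in the SLPI and MMP9 values was not tested.

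Across the 6 samples, 13132 other genes that averaged 50 counts or more were set against SLPI by Pearson correlation of log2 CPM, as a description in which samples share a control group and a library each. The 5 most like SLPI were SEMA3G (0.997), CDC42EP3 (0.996), SERAC1 (0.996), C12orf75 (0.996) and PLAC8 (0.995), none of which is a granule protease or an inhibitor. Their differences from LacZ were smaller than that of SLPI, with joined log2 fold changes of 0.35, 0.52, 0.37, 0.32 and 0.57, and edgeR called 0 of them in any comparison with LacZ. Of the 5, 4 had an unadjusted p under 0.05 each time, and DESeq2 called 2 (CDC42EP3 and PLAC8, higher). PLAC8 had 85.9 and 79.8 CPM in LacZ and between 109 and 136 CPM in the ARID1A-deficient samples. A correlation of at least 0.95 was reached by 123 genes. S100A9 stood at position 48 (0.97), CHI3L1 at 61 (0.97), LYZ at 89 (0.96) and S100A8 at 174 (0.94). RNASE2, from the list of primary granule genes, stood at 204 (0.93). SERPINA1 stood at 4210 (0.45), SERPINB1 at 4491 (0.41) and MMP9 at 11980 (-0.75). SLPI was chosen by its difference from LacZ, so any gene that divides the samples alike scores high.

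**Figure D3:**
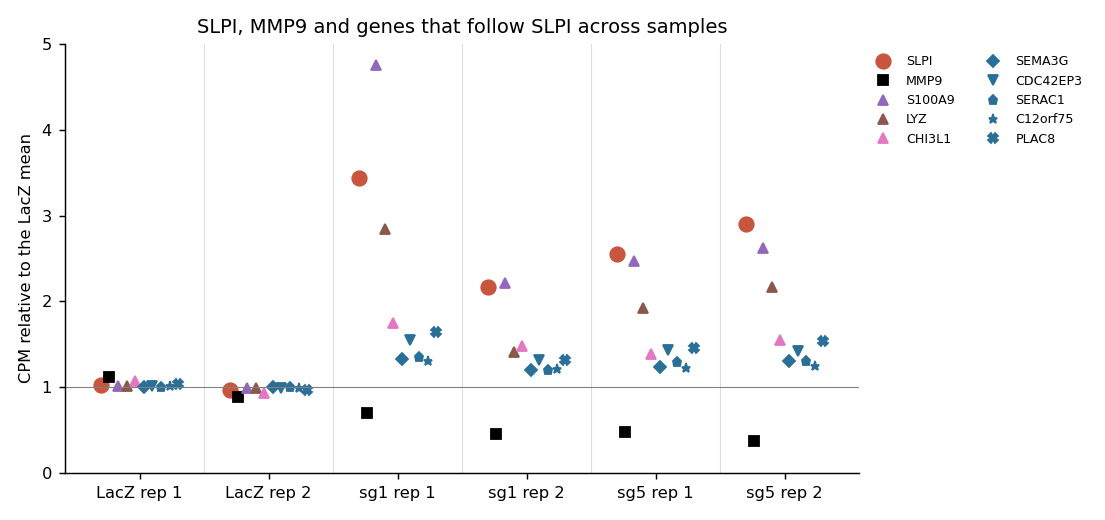
CPM of each gene in each of the 6 samples divided by its mean in LacZ, for SLPI, MMP9, 3 granule or late neutrophil genes (S100A9, LYZ and CHI3L1) and the 5 genes most correlated with SLPI. S100A9, LYZ and SLPI are each highest in replicate 1 of sg1 and above LacZ in all 4 ARID1A-deficient samples, the 5 most correlated genes lie above LacZ but closer to it, and MMP9 lies below LacZ in all 4.

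SLPI (chr20:45252239-45254564, minus strand) and MMP9 (chr20:46008908-46016561, plus strand) lie on the same chromosome arm with their starts 754 kb apart in GENCODE 29 (GRCh38). SLPI belongs to a cluster of genes for whey acidic protein domain inhibitors, many of which are expressed in the genital tract. Of the 60 other protein-coding genes within 1 Mb of SLPI, 40 were tested, and edgeR called 0 in sg1, in sg5 and joined, with 2, 4 and 3 at an unadjusted p under 0.05. DESeq2 called 1 each time, which was MMP9. Their median log2 fold change was -0.06 joined, between -1.23 and 0.21. Among the 40, 1 gene (WFDC12) lay above LacZ in all ARID1A-deficient samples and 7 lay below, MMP9 included. Over all genes tested, the shares were 9.72% above and 10.4% below. The neighbours WFDC12 and SEMG1 had low counts, with 14 and 82 in replicate 1 of LacZ against 944 for SLPI, and they were chosen after their values were seen.

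**Figure D4:**
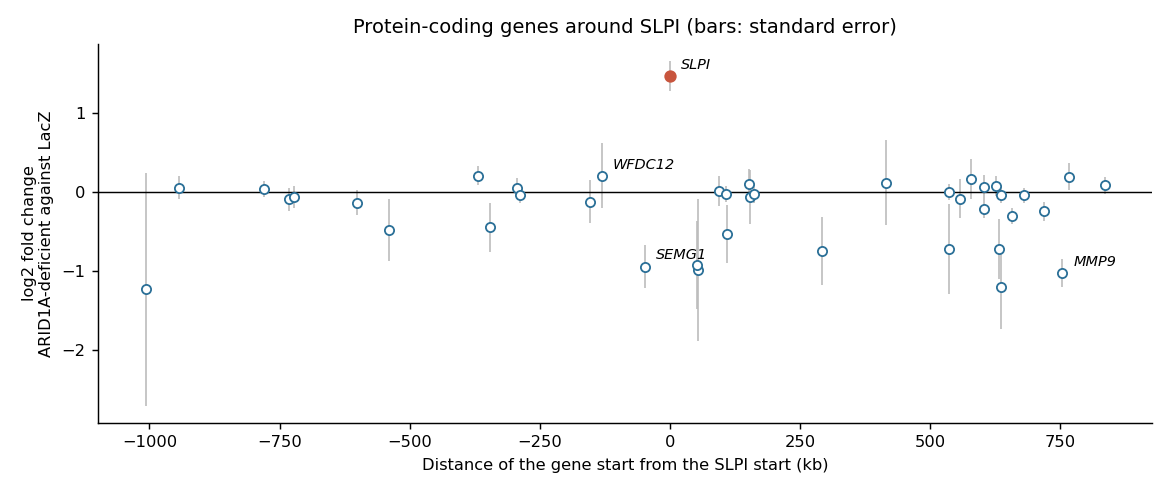
Log2 fold change of ARID1A-deficient against LacZ cells, with its standard error as a bar, for the tested protein-coding genes around SLPI, by the distance of their starts from the SLPI start in kb. SLPI (filled, FDR under 0.1) is at 1.47, no neighbour lies above 0.21, and MMP9 is at -1.02 at 754 kb.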

How the data were processed

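The authors quantified reads per transcript and deposited, for each sample, the estimated count, the TPM and the effective length of 196354 transcripts, in the format of Kallisto. The submitters' processing notes name kallisto, DESeq2 and the build hg19 without versions, and the study describes gene sums by tximport and DESeq2 at an FDR of 0.1. The transcript set is not given in the sources used here. By identifier, 181857 transcripts (92.6%) matched GENCODE 29 (GRCh38) and carried 95.4% to 95.5% of counts. Deposited estimated counts and TPM were summed to 52992 genes, and count sums were rounded. Unmatched transcripts were not used.

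edgeR 4.0.16 (R 4.3.3) was run with TMM factors, filterByExpr at a minimum count of 10 and the robust quasi-likelihood F-test, all 6 samples in one fit with group as the only term. P-values were adjusted by Benjamini-Hochberg over the 18514 genes tested and called under 0.1. The joined comparison is the mean of sg1 and sg5 against LacZ. Standard errors come from the F statistic. Principal components and correlations used log2 CPM with a prior count of 2. The common biological coefficient of variation was 16.6%. The fit was tested on simulated counts. DESeq2 1.42.0 was an alternative, beside other size factors, filters, a length offset, a replicate block, the groups compared alone, a threshold of 0.05 and left-out libraries.

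The 10 genes and all lists were chosen with earlier results of these data known. Named were these genes and ARID1A, called genes of each list (up to 4 by size of the joined change), a panel of granule, regulator and marker genes whatever their values, the 5 genes most correlated with SLPI, and called genes within 1 Mb of it. Exceptions are marked. The main fit did not pair samples by replicate number, since the methods of the study name no pairing. Correlations of same-numbered deviations were 0.07, 0.01 and -0.21. With 2 replicates a group, and differently numbered libraries standing apart in sg1 and sg5, these cannot show whether same-numbered samples were handled together.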

Additional observations from a re-analysis of the deposited data

Results flagged for a closer look

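In 3 of 29 named genes, 1 of the 4 ARID1A-deficient samples lay farther from the others than a 95% limit for such gaps allows, and chance alone marks about 1 in 20 groups. In CAMP, replicate 2 of sg1 had 19 counts (0.427 CPM) and the other 3 samples had 0, so its gap was 1.00 of the range. In LCN2, replicate 2 of sg5 had 1 count and the others 0, so the gap of 1.00 of the range rests on a single count. In HDC, replicate 1 of sg5 was lowest at 7.80 CPM against 8.74 to 8.89 CPM in the other 3, a gap of 0.871 of the range on the log2 scale, while all 4 lay below LacZ at 20.7 and 20.3 CPM.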

How the results depend on the processing

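Counts of called genes among the 10 depended on the processing more than the fold changes did. In sg1 against LacZ, edgeR called 0, DESeq2 called 2, the fit without a low-count filter and the fit without the 2 libraries that stood apart each called 3 (CAMP, with counts in 1 library, among them), and the length offset or the fit of only the groups compared called 1. In sg5 against LacZ, where edgeR called 1, DESeq2, no filter and only the groups compared each called 2, and without the 2 libraries it was 4. A mean of at least 50 counts, robust estimation turned off or an FDR of 0.05 left 0. In the joined comparison, where edgeR called 1, DESeq2 and no filter called 2, and without the 2 libraries it was 4. Leaving out 1 library gave between 0 and 1 calls in sg1, between 0 and 2 in sg5 and between 0 and 2 joined. All 4 ARID1A-deficient samples lay on one side of LacZ for 3 genes, for 3 to 5 when 1 library was left out, and for 5 without the 2 libraries.

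With a replicate block, calls were 0 in sg1, 0 in sg5 and 0 joined. With crossed numbers, chosen after seeing the data, they were 1, 1 and 2. Without replicate 1 of sg5, the log2 fold change in sg5 turned to -0.13 for SERPINB1 and -0.10 for SERPINA1, and without 1 library these ranged up to 0.68 and 0.41. SLPI stayed between 1.11 and 1.79 in sg1, between 1.35 and 1.55 in sg5 and between 1.24 and 1.63 joined, and MMP9 between -1.39 and -0.51, over the alternatives run. MMP8, with 21 or fewer counts in a sample, ranged from -1.32 to -0.20 in sg1, from -3.00 to -0.26 in sg5 and from -1.85 to -0.23 joined, where a length offset gave -1.26, -2.09 and -1.67. No alternative run called any of the 10 between the guides. The cause of these differences was not tested.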
